A study of Mus musculus with 24 samples.

Results

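The Nr3c2, Spsb4 and Sipa1l3 loci each held a site of open chromatin with more ATAC-seq fragments in germinal center (GC) B cells of K or CK mice than of WT mice. All consensus peaks that overlapped the mm10 GENCODE gene body of Nr3c2, Spsb4 or Sipa1l3, extended by 50 kb on each side, were taken, which gave 23 of the 65483 peaks measured: 4 at Nr3c2, 5 at Spsb4 and 14 at Sipa1l3. The 3 genes were picked because a peak at each of them was higher in K or CK than in WT. The gained peak of a locus was the one with a positive change and the lowest p in K or CK against WT, so its differences are given as a description without a test, and the 20 other peaks of the windows are called neighbouring peaks. Splenic GC B cells came from mice immunized with sheep red blood cells (SRBC) for 10 days and were profiled by Omni-ATAC. Every mouse carried 1 Cg1Cre allele, a Cre driven from the Cγ1 immunoglobulin locus that acts in B cells responding to antigen. The 4 WT mice carried Cre alone, the 4 C mice also Crebbp fl/+, the 4 K mice Kmt2d fl/+, and the 5 CK mice both floxed alleles, so that 1 copy of each floxed gene stayed intact. Mice were 8 weeks old, of C57BL/6J background and described as female, with 1 library per mouse. The comparisons address how partial loss of either chromatin regulator, or of both, changes accessibility.

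Nr3c2 encodes the mineralocorticoid receptor, a nuclear receptor that binds aldosterone and glucocorticoids and then binds DNA. It is best known from the kidney, where it controls sodium retention. Spsb4 encodes a SPRY domain and SOCS box protein, the substrate-recognition subunit of a Cullin 5 ubiquitin ligase. Sipa1l3 encodes a protein of the SIPA1 family, which carries a GTPase-activating domain for RAP, a small GTPase of cell adhesion and polarity. CREBBP acetylates histones at enhancers and promoters, and KMT2D methylates histone H3 lysine 4, mainly at enhancers. In ATAC-seq a transposase cuts DNA that nucleosomes leave free, so the number of fragments in a peak is a measure of its openness and not of transcription. In bulk cells, a higher count can come from more cells with an open site or from a more open site in each cell, and these cannot be told apart.

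The gained peaks at Nr3c2 and Spsb4 lay over the starts of the genes, whereas the one at Sipa1l3 lay deep inside the gene. Nr3c2 peak 1 spanned 3692 bp at chr8:76898883-76902574 (GRCm38, the build of mm10) and held the starts of several Nr3c2 transcripts and of the noncoding gene Gm10649, which runs beside it. Spsb4 peak 4 spanned 1968 bp at chr9:97017632-97019599 and held the Spsb4 start and exons of the noncoding gene Gm16010. ATAC-seq fragments have no strand, so they cannot be assigned to one or the other of these overlapping genes. Sipa1l3 peak 9 spanned 1171 bp at chr7:29338240-29339410, with its centre 179.8 kb into the 198.3 kb gene, over an internal coding exon, the introns beside it and the start of a short transcript annotated with a retained intron. The sequences below, read from GRCm38 5′ to 3′ on the strand of each gene, set the 2 gained promoters beside the gained intragenic site and the main Sipa1l3 promoter. The upstream windows are the 250 bases before a RefSeq start. At Nr3c2 this window lies inside peak 1 but downstream of the GENCODE gene start, chr8:76899442, from which peak distances are measured. Capitals mark the letters of the searched motifs that were found: the GC box, written GGGCGG, the CCAAT box, named by its letters, the E-box, searched as CACGTG, and the hexamer AGAACA, which corticosteroid receptors bind, each on either strand.
Nr3c2 upstream, chr8:76902038-76902287, plus strand: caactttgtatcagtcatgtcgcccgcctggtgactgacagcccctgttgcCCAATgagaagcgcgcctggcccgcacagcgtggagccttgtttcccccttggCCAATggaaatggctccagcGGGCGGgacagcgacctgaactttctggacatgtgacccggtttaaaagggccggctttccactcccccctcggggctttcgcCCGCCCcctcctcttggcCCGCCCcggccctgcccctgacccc
Spsb4 upstream, chr9:97018844-97019093, minus strand: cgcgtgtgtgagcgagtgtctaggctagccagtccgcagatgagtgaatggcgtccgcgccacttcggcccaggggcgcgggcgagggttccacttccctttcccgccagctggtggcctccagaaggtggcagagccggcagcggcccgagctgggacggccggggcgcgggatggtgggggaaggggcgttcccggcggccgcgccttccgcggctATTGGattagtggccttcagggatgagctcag
Sipa1l3 gained peak centre, chr7:29338676-29338975, minus strand: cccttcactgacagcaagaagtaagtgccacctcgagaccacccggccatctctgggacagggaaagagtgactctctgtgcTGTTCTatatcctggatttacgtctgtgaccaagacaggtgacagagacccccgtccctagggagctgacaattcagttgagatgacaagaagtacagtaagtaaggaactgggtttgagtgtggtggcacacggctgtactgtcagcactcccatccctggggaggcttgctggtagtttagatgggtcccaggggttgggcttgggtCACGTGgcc
Sipa1l3 upstream, chr7:29518642-29518891, minus strand: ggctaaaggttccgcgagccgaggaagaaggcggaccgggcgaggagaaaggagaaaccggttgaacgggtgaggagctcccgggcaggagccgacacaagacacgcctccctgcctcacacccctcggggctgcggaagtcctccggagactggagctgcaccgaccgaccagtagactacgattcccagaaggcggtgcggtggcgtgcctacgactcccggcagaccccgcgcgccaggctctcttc

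The 3 promoter windows were rich in G and C. They held 16 CpG dinucleotides at Nr3c2, 26 at Spsb4 and 25 at the main Sipa1l3 promoter, against a median of 6 over the 250 bases upstream of 32851 RefSeq promoters (GRCm38). The Nr3c2 window had 3 GC boxes and 2 CCAAT boxes, motifs held by 32.7% and 33.8% of these promoters, and the Spsb4 window 1 CCAAT box. None of the 10 motifs searched was found in the Sipa1l3 upstream window. In the 300 bases at the centre of the gained Sipa1l3 peak there were 6 CpG dinucleotides, 1 E-box and 1 AGAACA hexamer, which 5.88% and 21.8% of the centres of all peaks contain. The remaining motifs were absent from all 4 windows: the ETS site CCGGAAG, the cyclic AMP response element TGACGTC, the AP-1 site TGAGTCA, the NRF1 site GCGCATG, the YY1 site AAGATGG and the octamer core ATGCAAA. The Nr3c2 peak was longer than 98.2% of the 19161 peaks within 1 kb of a transcription start, and its GC content of 62.6% was above that of 85.9% of them.

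Depth was even, at 17483706 to 21857738 fragments in peaks for the 17 libraries, and levels are given as CPM, counts per 1000000 fragments after TMM normalization. The promoters of all 8 GC B cell markers examined, among them Bcl6, held peaks, with a summed level of 593 to 654 CPM for WT, 563 to 616 for C, 600 to 617 for K and 547 to 603 for CK. The T cell genes Cd3e, Cd4 and Cd8a and the myeloid genes Itgam and Lyz2 had no promoter peak, while Cd2, which B cells also use, ranged from 85.9 to 123 CPM (92.0 to 113 in K and 85.9 to 99.6 in CK against 104 to 123 in WT) and Csf1r from 0.923 to 2.27 CPM. The plasma cell genes Sdc1 and Prdm1 summed to 116 to 125 CPM in WT and 123 to 131 CPM in CK. None of the 9 peaks in the Crebbp and Kmt2d gene bodies passed the threshold used throughout in C, K or CK, which was a Benjamini-Hochberg adjusted p below 0.01 over all peaks by edgeR's quasi-likelihood test (2 of 27 comparisons at an unadjusted p under 0.05, and 0 with DESeq2), and these peaks do not report the deletion of the floxed exons. Contrary to the stated sex, 9 of the 17 libraries held between 1421 and 1742 fragments in 11 Y chromosome peaks and the other 8 held 0 or 1. Both kinds of library were present in every genotype, with Y fragments in 2 of 4 WT, 2 of 4 C, 3 of 4 K and 2 of 5 CK mice.

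Accessibility of the Nr3c2 promoter was lowest in WT, intermediate in C and K and highest in CK. The 4 WT mice had 17.1, 20.3, 18.1 and 15.1 CPM at peak 1 and the 4 C mice 22.6, 20.9, 21.5 and 20.3 CPM. The 4 K mice had 22.6, 23.5, 21.2 and 22.9 CPM, and the 5 CK mice 30.2, 31.6, 31.6, 29.4 and 29.8 CPM. Every CK mouse was above every mouse of the other genotypes, every C and K mouse was above every WT mouse (the lowest C and the highest WT mouse only by less than the rounding of 20.3), and C and K overlapped. The group means were 17.6 ± 2.16 CPM for WT (SD, n = 4), 21.3 ± 0.973 for C (n = 4), 22.5 ± 0.975 for K (n = 4) and 30.5 ± 1.01 for CK (n = 5). On the log2 scale the fitted differences from WT were 0.27 ± 0.074 in C (estimate ± SE) and 0.35 ± 0.074 in K, and CK, at 0.79 ± 0.069, had a 1.73-fold level.

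**Figure D1:**
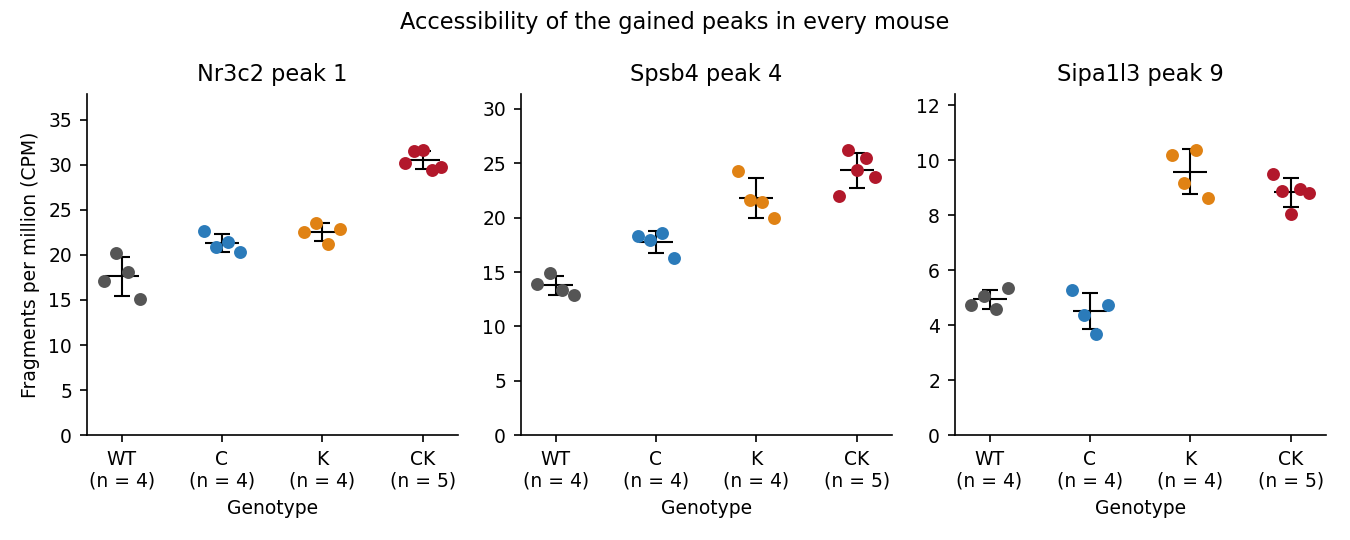
CPM after TMM normalization (y axis, from 0) at the gained peak of each locus in every mouse, by genotype (x axis). Points are mice and bars the mean ± SD, and CK mice stand highest at Nr3c2 (29.4 to 31.6 CPM), K and CK mice overlap at Spsb4, and WT and C mice overlap at Sipa1l3.

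CK exceeded K at the Nr3c2 promoter by 0.44 ± 0.068 and exceeded C by 0.52 ± 0.068 on the log2 scale. The CK value stood 0.16 ± 0.10 above the C and K differences added together. In libraries with Y fragments the log2 ratio of CK to WT means was 0.67 (2 CK and 2 WT mice), and in those without it was 0.90 (3 CK and 2 WT mice). With counts centred within bins of peak GC content, the differences at this GC-rich peak became 0.23 in C, 0.13 in K and 0.50 in CK, and the excess of CK over K 0.37.

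The 3 other peaks of the Nr3c2 locus lay together 308.0 to 323.1 kb into the gene and were close to the limit of detection. Peak 1 carried 4.78 CPM per kb of peak in WT, and these peaks 2.25, 1.73 and 0.754 CPM per kb. Their summed level was 2.23 ± 0.389 CPM for WT, 2.40 ± 0.598 for C, 1.90 ± 0.485 for K and 2.71 ± 0.993 for CK (SD), and no genotype stood apart from WT at any of them. With a median of 10 to 18 fragments per library at each peak, the SE of a log2 difference from WT was 0.34 to 0.39. A change as large as the one at the promoter could thus not be seen reliably there. The nearest peak outside the window lay 121.4 kb beyond the gene and differed from WT by -0.02 in C, -0.04 in K and 0.25 in CK.

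Accessibility of the Spsb4 promoter was lowest in WT, higher in C and highest in K and CK. Peak 4 had 13.94, 14.93, 13.36 and 12.90 CPM in the WT mice and 18.27, 17.96, 18.60 and 16.25 CPM in the C mice. The K mice had 24.30, 21.58, 21.41 and 19.93 CPM and the CK mice 22.01, 26.17, 24.42, 25.45 and 23.74 CPM. WT, C and K did not overlap with each other, while K and CK did. Means were 13.8 ± 0.877, 17.8 ± 1.05, 21.8 ± 1.82 and 24.4 ± 1.61 CPM (SD, n = 4, 4, 4 and 5), and the differences from WT were 0.37 ± 0.079 in C, 0.66 ± 0.078 in K and 0.82 ± 0.074 in CK (log2, ± SE), a 1.77-fold level in CK. CK stood 0.16 ± 0.071 above K and 0.21 ± 0.11 below the C and K differences added together. The log2 ratio of CK to WT was 0.72 in libraries with Y fragments and 0.92 in those without. Centring by GC content gave 0.34 in C, 0.53 in K and 0.66 in CK.

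Away from its start, the Spsb4 locus had 1 further peak inside the gene and 3 outside it, all weak. Their summed level was 8.95 ± 0.403 CPM for WT, 8.38 ± 0.386 for C, 9.71 ± 0.336 for K and 10.0 ± 0.409 for the CK mice. The intragenic peak 3 (chr9:96960397-96961294, 58.0 kb from the start) differed in the direction of the promoter without being called: the WT mice had 1.17, 1.04, 1.22 and 1.44 CPM and the CK mice 1.67, 1.88, 1.85, 1.84 and 1.44 CPM. Its log2 differences were 0.17 ± 0.19 in C, 0.48 ± 0.19 in K and 0.52 ± 0.18 in the CK mice. The farthest peak inside the window, 49.7 kb from the gene, differed from WT by -0.01 in K and 0.05 in CK, and the nearest one outside, at 53.4 kb and closest to the start of Pxylp1, by 0.41 and 0.48.

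At Sipa1l3 the gain was inside the gene, was present in both K and CK, and was not seen in C. Peak 9 had 4.7, 5.1, 4.6 and 5.4 CPM in the WT mice and 5.3, 4.4, 3.7 and 4.7 CPM in the C mice. It had 10.2, 9.2, 10.4 and 8.6 CPM in the K mice and 9.5, 8.9, 8.0, 9.0 and 8.8 CPM in the CK mice. The 9 mice with a floxed Kmt2d allele lay above all 8 without one, and neither WT and C nor K and CK could be separated. Means were 4.94 ± 0.348 CPM for WT, 4.52 ± 0.668 for C, 9.59 ± 0.827 for K and 8.84 ± 0.521 for CK (SD, n = 4, 4, 4 and 5). Differences from WT were -0.13 ± 0.12 in C, 0.96 ± 0.11 in K and 0.84 ± 0.11 in CK on the log2 scale, so that the K level was 1.94-fold that of WT. CK differed from K by -0.12 ± 0.099 and from the C and K differences added together by 0.01 ± 0.15. This peak had an average GC content for a promoter peak (53.2%, above 42.0% of them), and centring by GC content left it at -0.15 in C, 0.94 in K and 0.81 in CK. In libraries with Y fragments the log2 ratio of K to WT was 0.99 (3 K and 2 WT mice), and the 1 K mouse without them gave 0.88.

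The main start of Sipa1l3 did not share this gain. Peak 14 at chr7:29518105-29519429 covers the start of the full-length gene and was the most open peak of the 3 loci, with 66.0, 73.2, 68.9 and 65.7 CPM in the WT mice, 70.7, 73.1, 65.1 and 71.7 in the K mice and 70.5, 66.2, 64.6, 70.8 and 69.7 in the CK mice. The genotypes overlapped throughout, with log2 differences from WT of -0.03 ± 0.048 in C, 0.03 ± 0.048 in K and 0.00 ± 0.045 in CK. After centring by GC content this GC-rich peak (66.9%) became -0.19 in K and -0.30 in CK, the latter past the threshold in the lower direction. At a second cluster of Sipa1l3 starts, 13.4 kb into the gene, peak 13 (chr7:29504603-29505940) had 3.19, 3.66, 4.22 and 3.43 CPM in the WT mice and 2.97, 2.38, 2.77 and 2.40 CPM in the K mice. All K mice lay below all WT mice, but the difference of -0.47 ± 0.17 did not pass the threshold in K, and the differences were 0.10 ± 0.16 in C and -0.04 ± 0.15 in CK.

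**Figure D2:**
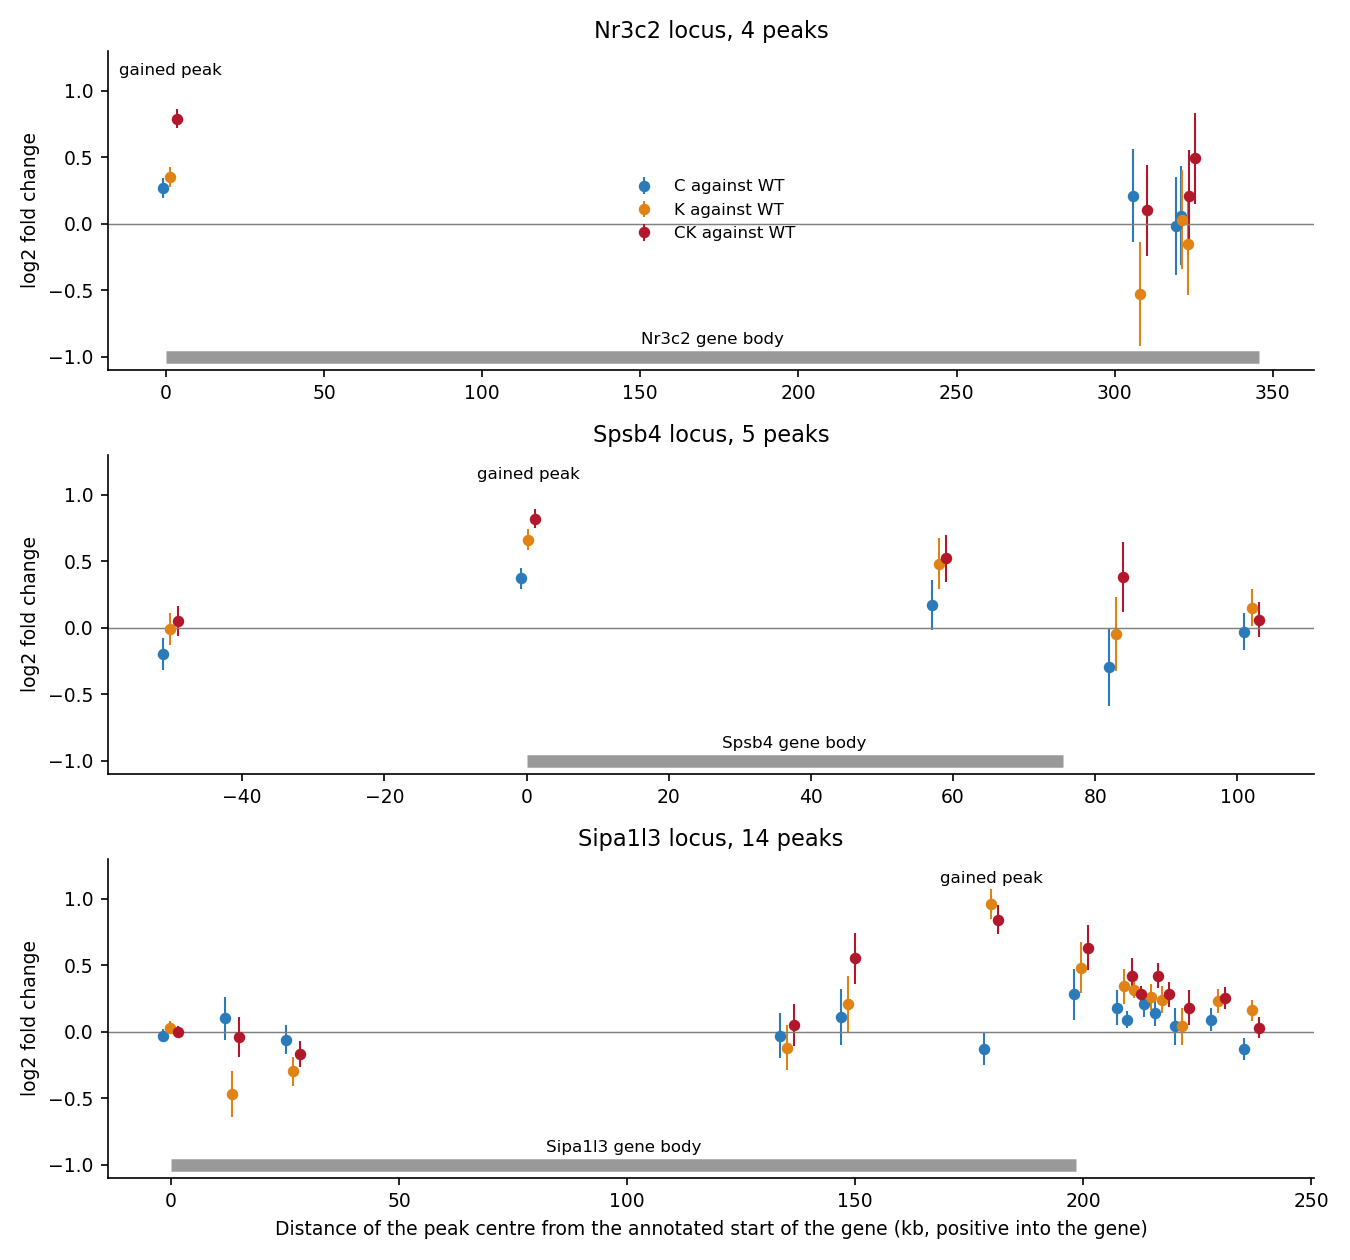
Log2 fold change against WT (y axis, points ± SE) of each peak of the 3 loci by the distance of its centre from the annotated gene start (x axis, kb), with the 3 genotypes drawn slightly side by side and the gene body as a grey bar. The Nr3c2 and Spsb4 gains sit at the gene start, and the Sipa1l3 gain sits 179.8 kb into the gene while the peak at the start stays near 0.

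Past the far end of Sipa1l3, the window reached the neighbouring gene Dpf1, a subunit of neuronal chromatin remodelling complexes, and both peaks of the windows that passed the threshold without being a gained peak lay at Dpf1 starts. Peak 6 (chr7:29306718-29308287) had 32.9, 32.0, 32.9 and 33.2 CPM in the WT mice, 40.6, 40.3, 39.9 and 41.4 in the K mice and 38.9, 38.4, 35.9, 41.9 and 44.3 in the CK mice. Neither K nor CK overlapped WT, and the log2 differences were 0.31 ± 0.061 in K and 0.28 ± 0.059 in CK, against 0.09 ± 0.062 in C. Peak 5 (chr7:29303644-29304021) had 9.60 ± 0.597 CPM for WT, 11.1 ± 1.15 for C, 11.5 ± 1.34 for K and 12.8 ± 1.09 for CK, a difference of 0.42 ± 0.096 in CK. At neither peak did the difference pass the threshold after centring by GC content (0.26 in K and 0.21 in CK at peak 6, and 0.12 in CK at peak 5). Closest to the gained peak, at the start of the noncoding gene Gm44632, peak 8 had 1.35 ± 0.252 CPM in WT and 2.11 ± 0.347 in CK, a difference that did not pass the threshold.

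Over all 23 peaks, 4 were past the threshold and higher in K (1.48% of all peaks were called, 0.647% as higher) and 5 in CK (6.84% and 3.54%), with none lower. These are the contrasts by which the genes were picked, so the 3 gained peaks make up most of these calls, with 1 neighbouring peak called in K and 2 in CK. After centring by GC content 2 were past it as higher in K, the gained peaks of Spsb4 and Sipa1l3 but not that of Nr3c2, and in CK 3 were past it as higher and Sipa1l3 peak 14 as lower. Of all 65483 peaks, 1084 were past it in K and 4810 in CK after centring, in either direction. Among the 20 neighbouring peaks, every CK mouse was above every WT mouse at 6 (6.59% of all peaks) and every K mouse at 3 (5.42%), with all K mice below at 1 (5.87%). Spsb4 peak 3 is among the 6 by less than the rounding of 1.44 CPM. The median log2 difference of the neighbouring peaks was 0.10 in K and 0.23 in CK, beside medians of 0.00 over all peaks.

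**Figure D3:**
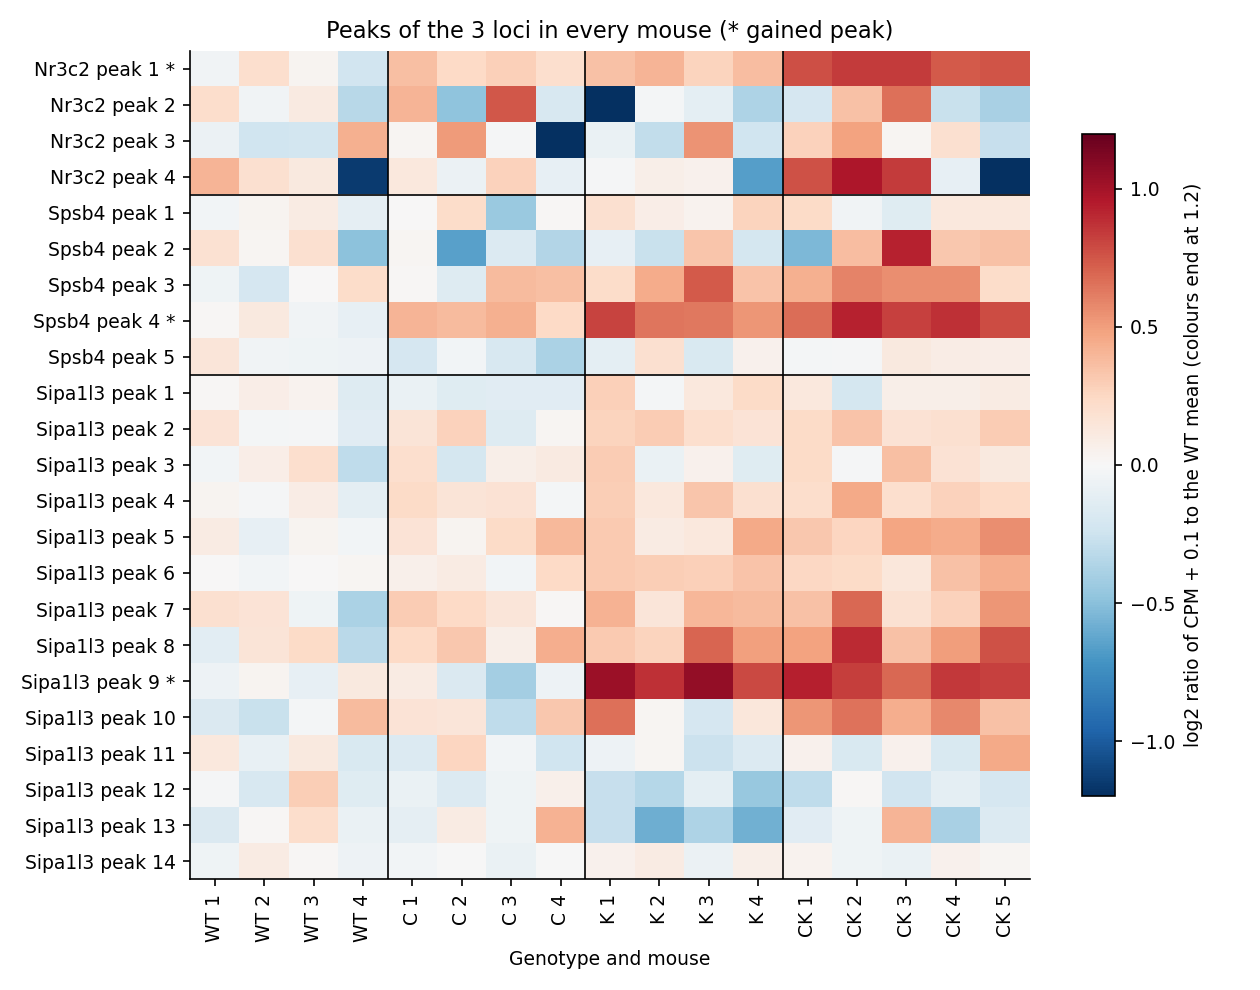
Log2 ratio of CPM + 0.1 to the WT mean (colour, limits at 1.2 in either direction) for the 23 peaks (rows, gained peaks with an asterisk) in the 17 mice (columns, grouped by genotype). The 3 gained rows are evenly coloured within K and CK, most others mix in sign between mice, and the Sipa1l3 peaks numbered 2 to 8 are mostly above the WT mean in K and CK.

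The neighbouring peaks were tested in C against WT and CK against K, contrasts that the choice of the genes did not use. In C against WT, 0 of the 20 passed the threshold in edgeR's quasi-likelihood test (0.16% of all peaks did), 0 had an unadjusted p under 0.05 (8.9% of all peaks did), 0 passed with DESeq2, and the lowest adjusted p was 0.565. No neighbouring peak had every C mouse above or every C mouse below every WT mouse (2.89% and 2.77% of all peaks did). Differences ranged from -0.30 to 0.28 with a median of 0.07 on the log2 scale, while the median over all peaks was 0.00. In CK against K, 0 of 20 passed in edgeR and in DESeq2 (0.00916% of all peaks did in edgeR), 1 had an unadjusted p under 0.05 (7.35% of all peaks did), and the lowest adjusted p was 0.511. That peak was Sipa1l3 peak 13, higher in CK by 0.42 ± 0.16. CK against C and K against C were not used by the choice either, and 0 of 20 passed in edgeR in both. The lowest adjusted p was 0.0484 and 0.0475, and the median difference 0.18 and 0.10. An unadjusted p under 0.05 was held by 7 and 4 of the 20, for which no share of all peaks is given here. The C against WT comparison shares its WT mice with the contrasts that picked the genes. CK against K shares all its mice with them, and the comparisons with C their CK or K mice. Summed over the 13 neighbouring Sipa1l3 peaks, the level was 179 ± 6.79 CPM for WT, 183 ± 6.07 for C, 196 ± 5.21 for K and 197 ± 6.42 for CK. This sum includes peaks 1 to 8, which lie outside Sipa1l3, at or near starts of Spint2, Ppp1r14a, Dpf1 and Gm44632. Among them peak 6 had means of 32.7 CPM in WT, 40.6 in K and 39.9 in CK. Inside the gene, the most open peak, peak 14, had 68.5, 70.1 and 68.3 CPM.

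Promoters of genes that act with the 3 members were next compared across genotypes. They were 55 genes in 3 lists, of which 51 had a peak within 1 kb of a start (80 peaks in all). In C, 0 of 80 passed the threshold in edgeR (8 at an unadjusted p under 0.05, 0 with DESeq2), beside 0.146% of all promoter peaks past the threshold and 8.91% at an unadjusted p under 0.05. In K, 0 of 80 passed in edgeR (21 at an unadjusted p under 0.05, 2 with DESeq2), beside 1.88% and 25.0%. In CK, 6 were higher and 2 were lower, beside 7.95% and 1.87% of all promoter peaks and so near the background. Leaving out WT 3 or WT 4 left 1 higher and 1 lower, and 3 calls were left without CK 1 and 5 without CK 4. A window of 5 kb around the starts held 155 peaks and gave 6 higher and 8 lower. After centring by GC content 1 was higher and 16 were lower in CK, and 2 of the calls were shared with those before centring. Among all 19161 promoter peaks the same centring turned 1523 higher and 359 lower in CK into 642 higher and 1658 lower. The median of the 80 differences in CK was 0.02, near the 0.05 of all promoter peaks, and centring moved both down, to -0.08 and -0.03.

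Among the 8 called promoters, Hsd11b1 was lower and Hsd11b2 higher in CK. Hsd11b1, which regenerates active glucocorticoid inside cells, was less accessible (chr1:193242537-193243907): the WT mice had 8.03, 6.89, 7.17 and 9.08 CPM and the CK mice 4.38, 5.06, 5.58, 3.59 and 3.98 CPM. No CK mouse reached the level of any WT mouse, and the difference was -0.78 ± 0.13 in CK (adjusted p = 0.000261), -0.46 ± 0.13 in K (adjusted p = 0.042) and -0.31 ± 0.13 in C (adjusted p = 0.474), with -0.74 in CK after centring by GC content. Hsd11b2, the enzyme that inactivates glucocorticoid and so guards the mineralocorticoid receptor in kidney, was more accessible, with 28.0, 24.5, 23.4 and 24.0 CPM in the WT mice and 35.1, 29.5, 29.5, 33.0 and 32.4 CPM in the CK mice. Its difference in CK was 0.35 ± 0.069 (adjusted p = 0.00114) and 0.20, no longer past the threshold, after centring.

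Of the other 33 peaks of the corticosteroid list, 4 passed in CK. Ncor1, a corepressor of nuclear receptors, was lower at 1 of its promoter peaks by 0.48 on the log2 scale (-0.48 ± 0.11, adjusted p = 0.00377, and -0.41 after centring). That peak had 11.3 CPM in WT. Its other, more open promoter peak, with 65.7 CPM in WT, had a CK difference of 0.00 ± 0.05. Tsc22d3, a glucocorticoid-induced gene, was higher at 1 promoter peak by 0.38 ± 0.085 (adjusted p = 0.00354), with 0.02 and 0.05 at its other promoter peaks. The chaperone gene Hsp90aa1 was higher at 1 promoter peak by 0.31 ± 0.073 (adjusted p = 0.00593), with 0.00 at its other one. The coactivator Ncoa1 was higher at 1 peak by 0.27 ± 0.065 (adjusted p = 0.00658). These 3 increases did not pass after centring, which left 0.08, 0.20 and -0.03. The glucocorticoid receptor gene Nr3c1, the closest relative of Nr3c2, had 2 promoter peaks at 123 ± 5.12 and 80.8 ± 4.72 CPM in WT, with CK differences of 0.07 ± 0.053 and -0.05 ± 0.040 (adjusted p = 0.423 and 0.475), and -0.22 (past the threshold) and -0.01 after centring.

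In the ubiquitin ligase list, Pawr, a pro-apoptotic protein that SPSB proteins bind, was the 1 promoter of 13 past the threshold in CK (0.27 ± 0.056, adjusted p = 0.00168, and -0.02 after centring). The paralogs of Spsb4 did not pass, with CK differences of -0.05 ± 0.050 at Spsb1, 0.20 ± 0.066 at Spsb2 (adjusted p = 0.0396) and 0.03 ± 0.047 at Spsb3. In the RAP list, Rap2a, a RAP GTPase itself, was the 1 of 32 past the threshold (0.26 ± 0.058, adjusted p = 0.00344, and -0.03 after centring). The Sipa1l3 relatives Sipa1, Sipa1l1 and Sipa1l2 had CK differences of -0.08 ± 0.039, 0.04 ± 0.055 and -0.02 ± 0.048. Over the 8 promoter peaks of the 7 family members, 0 passed in edgeR or DESeq2 in any genotype. In each genotype 1 had an unadjusted p under 0.05 (8.91% of all promoter peaks did in C and 25.0% in K). After centring 4 of the 8 passed as lower in CK, Nr3c1, Spsb1, Sipa1 and Sipa1l1, and Spsb1 in K also. Of all 19161 promoter peaks, 1658 passed as lower in CK and 378 in K after centring.

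**Figure D4:**
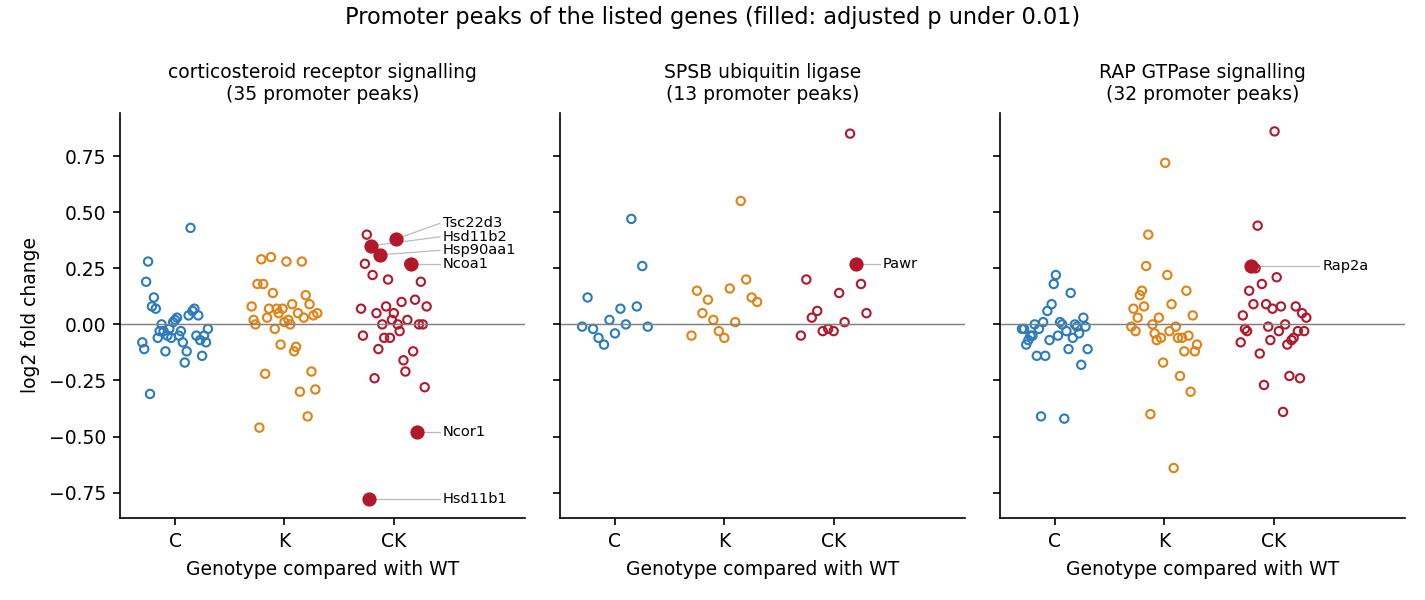
Log2 fold change against WT (y axis) of the promoter peaks of the 3 gene lists in C, K and CK (x axis), each point a peak. Filled, named points are past the threshold of an adjusted p under 0.01, which 8 of 80 were in CK and 0 in C and K.

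**Figure D5:**
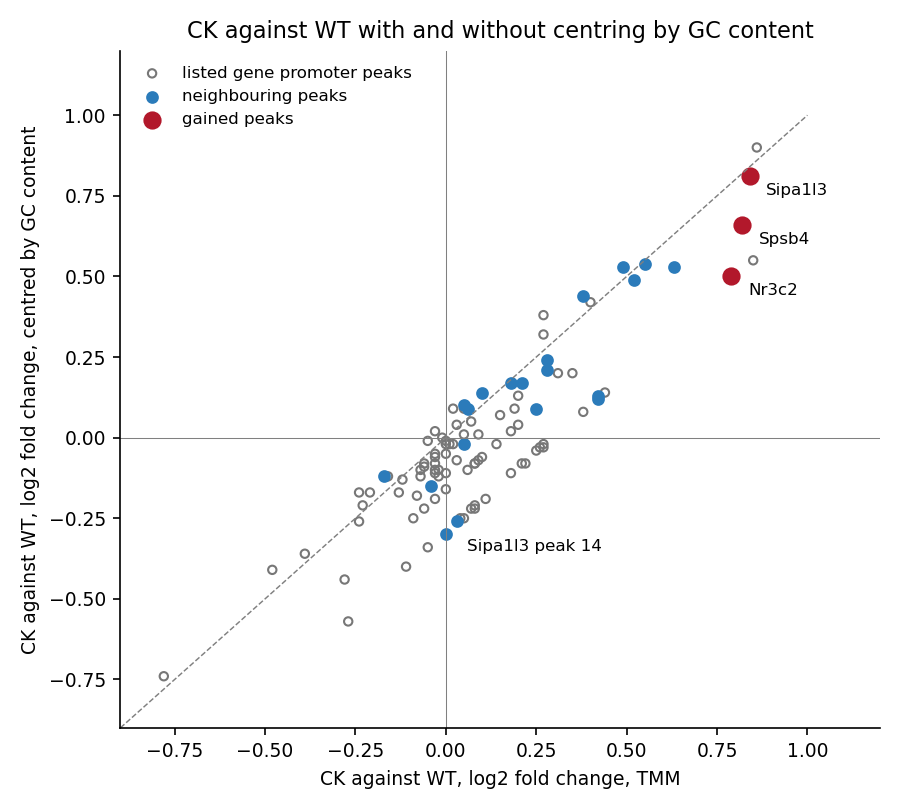
Log2 fold change in CK against WT before (x axis, TMM) and after (y axis) centring by GC content, with the dashed line marking equal values. The gained peaks stay above 0, at 0.50, 0.66 and 0.81, while Sipa1l3 peak 14 and many listed promoters drop below 0.

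The promoter peaks whose levels followed the gained peaks most closely over the 17 libraries were named by Pearson's r of log2 CPM among 13938 candidates outside the loci, each within 1 kb of the start of a coding gene. For Nr3c2 they included those of Pcp4l1 (0.937), Gtf2ird1 (0.933), Rab33a (0.928) and Ccnjl (0.924). For Spsb4 they were Zfp704 (0.949), Fgf18 (0.945), Pm20d2 (0.944), Itga3 (0.941) and B3galt4 (0.938). For Sipa1l3 they were Parp12 (0.953), Cyp2d22 (0.933), Pwwp2b (0.921), Arhgap5 (0.913) and Pkdcc (0.912), and the Parp12 peak repeated the split by Kmt2d allele, with 6.56 CPM in WT and 6.53 in C but 9.43 in K and 9.56 in CK. Between the gained peaks themselves r was 0.894 for Nr3c2 and Spsb4, 0.78 for Spsb4 and Sipa1l3, and 0.635 for Nr3c2 and Sipa1l3. These values describe libraries that share the same genotype differences and depth, and carry no test.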

How the data were processed

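ATAC-seq counts of 17 GC B cell libraries were analysed, and the CB and CC libraries of WT mice were not analysed here. The authors ran the nf-core ATAC-seq pipeline (mm10). The deposited table holds their raw counts of fragments in each consensus peak (featureCounts 2.0.1, read pairs, multiple overlaps allowed, minimum overlap fraction 0.2), without normalization. A pair that overlaps several peaks thus counts in each. All 17 columns were used.

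Peaks under 10 counts in all were to be removed (0 were). Counts were fitted with edgeR 4.0.16 in R 4.3.3 (TMM, quasi-likelihood F test, 1 coefficient per genotype, no covariates, Benjamini-Hochberg over 65483 peaks). The threshold was an adjusted p under 0.01. SE is the log2 fold change divided by the square root of F. The median biological coefficient of variation was 0.0946. The script was tested on simulated data. Genes and starts came from GENCODE, sequence from GRCm38, and 3 of 3 members matched RefSeq's promoter table.

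The members and lists were chosen with earlier results of these data known. Named in full were gained peaks, peaks within 1 kb of a member's start and peaks past the threshold; of the lists, genes past the threshold and close family members; and for likeness, 5 peaks per gained peak, of which 1 is not reported here. Alternatives were DESeq2 1.42.0, other scalings and filters, 20 GC content bins, a replicate block, Y signal, other windows and thresholds, and leaving out each mouse. Y signal used the 11 Y peaks in the first part of the chromosome, since Y peaks at its far end drew fragments in all libraries. Where the labels do not say that mice were independent in litter or day, p-values measure the spread between these libraries only.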

Additional observations from a re-analysis of the deposited data

How the results depend on the processing

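Each gained peak kept the sign of its C, K and CK differences under all alternatives run, while the split of the listed promoter calls into higher and lower did not hold. With 20 GC content bins the log2 differences were 0.13 (K) and 0.50 (CK) at Nr3c2 and 0.53 and 0.66 at Spsb4, locus calls in K were 2, and listed promoter calls were 3 in K (all lower) and 17 in CK (1 higher). The log2(1.5) limit left 2 locus calls in K, 3 in CK and 1 listed promoter in CK (lower). A threshold of 0.05 gave 9 calls among the 23 locus peaks in CK. Among the 80 listed promoter peaks it gave 7 in K and 17 in CK, and no share of all peaks at 0.05 is given here. The gene body alone held 12 peaks and 3 calls in CK. A 5 kb start window held 155 peaks and gave 14 listed promoter calls in CK (6 higher), and DESeq2 gave 2 in K among the 80. The replicate block gave 4 listed promoters in K. Over all peaks it moved calls from 105 to 213 in C, 966 to 2146 in K, 4478 to 6607 in CK and 6 to 26 in CK against K. The labels do not say whether same-numbered mice share a litter or day. Deviations of same-numbered mice from their genotype means had r from -0.093 to 0.224 (24 pairs, 12 above 0.1). All 12 were pairs alike in Y signal. Same-numbered pairs unlike in it had r from -0.093 (WT 2 and K 2) to 0.092 (WT 4 and K 4). Other pairs had r from -0.243 (WT 1 and CK 5, unlike in Y signal) to 0.274 (WT 4 and CK 5, alike in it). Whether the number marks a pairing apart from Y signal was not tested, nor was the cause of the added calls. No neighbouring peak passed in C against WT or CK against K under any alternative run.

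Leaving out 1 mouse at a time, Nr3c2 ranged over 0.21 to 0.35 in C, 0.28 to 0.42 in K and 0.72 to 0.86 in CK, the ends of each range coming without WT 4 and WT 2. Locus calls ranged from 2 to 4 in K (2 without WT 3, WT 4, K 1, K 2 or K 4) and from 4 to 5 in CK. Listed promoter calls ranged from 0 to 2 in K (above 0 without WT 1, K 4 or CK 2) and from 2 to 10 in CK (2 without WT 3 or WT 4, 3 without CK 1 and 5 without CK 4). A median of 10 to 18 fragments limits the Nr3c2 neighbouring peaks.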
